A study of Mus musculus with 6 samples.

Results

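Chromatin remodelers use the energy of ATP to slide, eject or exchange nucleosomes. The BAF complexes, built around *Smarca4* or *Smarca2*, open chromatin and exchange several of their subunits when pluripotent cells become neurons. The NuRD complex joins a CHD-family ATPase with histone deacetylases and is needed for mouse embryonic stem cells (mESCs) to leave self-renewal, and the ISWI, INO80 and remaining CHD enzymes space nucleosomes, exchange histone variants or act at enhancers. The expression of these genes was compared between WT and Alkbh1-/- mESCs. *Alkbh1* encodes a dioxygenase of the AlkB family that the study examined as a histone H2A demethylase with a role in neural differentiation.

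The genes were chosen by name from the larger of the 2 deposited tables: every symbol beginning with Smarc, with Chd and a digit or with Hdac and a digit, the Mta genes, and a list of further BAF, NuRD, SIN3 and INO80-type subunits, older symbols included. This gave 63 genes with 143 probe sets, out of 15375 named genes and 33142 probe sets. A gene with several probe sets was represented by the one with the highest mean level. The BAF group held 25 genes, the NuRD/HDAC group 23 and the group of other remodelers 15. A further 2 probe sets carried the symbols Ss18 and Hdac7a but the gene identifiers of *Syngr1* and *Uap1l1*, and they were not counted as members.

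RNA came from undifferentiated mESCs of C57BL/6 background at passage 8 and day 0, with no treatment, on 3 Affymetrix whole-genome mouse arrays of WT cells and 3 of Alkbh1-/- cells. On these arrays a probe set is a group of short oligonucleotides against 1 transcript. Lines of both genotypes were derived from blastocyst-stage littermates of a heterozygous cross, and were kept with LIF on irradiated CF-1 mouse embryonic fibroblasts. The arrays of a genotype are called parallels, and nothing states that they came from separate cultures or from more than 1 line. The values used are pooled: the larger table has 1 mean log2 value per probe set over all 6 arrays, and the smaller table has 1 geometric mean of the intensity for each genotype, for 4326 probe sets that its header says had a nominal p under 0.05. With pooled values alone, no difference below has an error, an interval or a test of its own, and the number of arrays limits the precision.

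Every probe set with a mean for each genotype had already been selected for its difference. Among the 4232 that could be tied to the larger table, the smallest log2 difference between the genotypes was 0.37 in size and the median was 0.67. The differences of the remodelers are therefore descriptions of selected probe sets. A remodeler outside the smaller table has a level but no known difference, which does not show that it was equal in the 2 genotypes.

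The targeted gene went with the labels. *Alkbh1* had a log2 mean of 9.57 in WT and 4.69 in Alkbh1-/- mESCs at 1434660_at, a log2 difference of −4.89, and a log2 difference of −1.79 at 1438681_at. The brightest probe sets of all 10 pluripotency markers lay between 10.05 (*Zfp42*) and 14.49 (*Dppa5a*) on the log2 scale, including *Pou5f1* at 12.64 and *Sox2* at 12.66, far above the table's median of 6.31.

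At their brightest probe sets, 7 of the 63 remodeler genes (11.1%) had a mean for each genotype, against 14.9% of all named genes. Of the 7, *Hdac6* and *Dpf1* were higher in Alkbh1-/- mESCs, and *Chd7*, *Arid2*, *Mbd3*, *Smarcd1* and *Smarca1* were lower. A difference of more than 1.5-fold was reached by 1 gene in each direction, *Hdac6* above WT and *Chd7* below it. The same size was reached upwards by 4.73% of all named genes and downwards by 4.94%. By probe set, 14 of 143 (9.79%) had a mean for each genotype, against 12.8% of the whole table, 5 of them higher and 9 lower in Alkbh1-/- mESCs. Of these, 4 exceeded WT by 1.5-fold, beside 4.19% of the table, and 3 fell short of WT by that size, beside 3.87%. The remodelers thus had no larger share of selected probe sets than the table as a whole. Their differences ran from 0.41 to 1.00 in size with a median of 0.56, beside the median of 0.67 for all selected probe sets, and 18.8% of those had a larger difference than any remodeler.

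**Figure D1:**
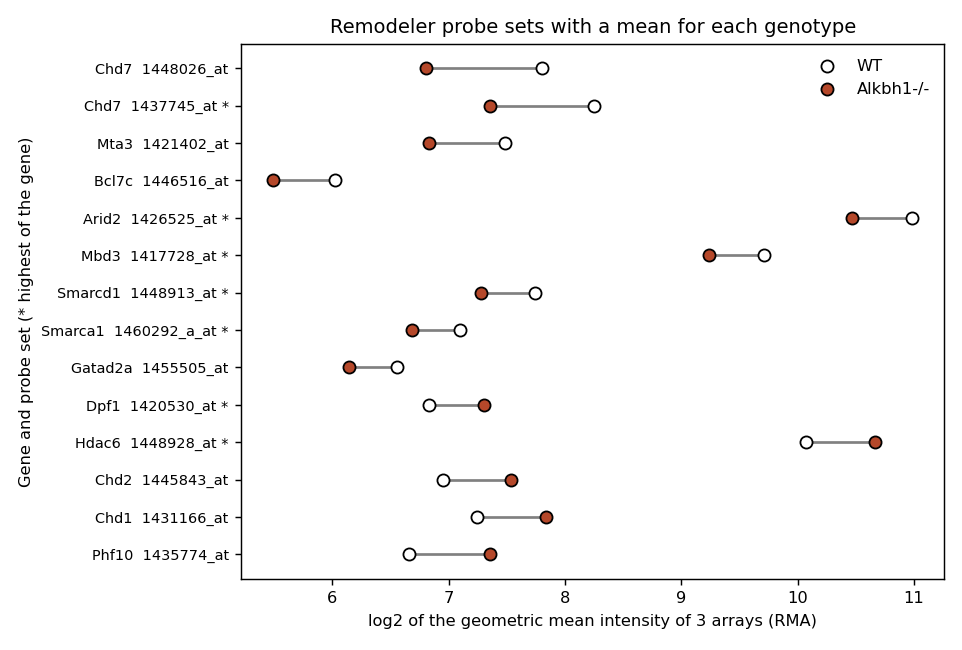
Pooled log2 means of the 14 remodeler probe sets that have a mean for each genotype, with WT as open and Alkbh1-/- as filled circles, a line joining the 2 values of a probe set, and an asterisk at the brightest probe set of a gene. Each circle is 1 geometric mean of 3 arrays and has no error bar, because only pooled means were used. Both *Chd7* probe sets lie lowest relative to WT, at −0.89 and −1.00, and *Phf10* shows the largest difference in the other direction, at 0.69.

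*Chd7* had the largest difference among the 13 remodeler genes with any difference known. It encodes an ATPase that binds enhancers and is needed for neural crest and inner ear development, and its loss of 1 copy causes CHARGE syndrome in humans. At 1437745_at its geometric mean intensity was 304 in WT and 164 in Alkbh1-/- mESCs, or 8.25 and 7.36 on the log2 scale, which is a log2 difference of −0.89 and 1.86-fold less in Alkbh1-/- cells. At the gene's other probe set, 1448026_at, the intensities were 223 and 112, a log2 difference of −1.00. *Chd7* was the only remodeler gene with all of its several probe sets in the smaller table. Both probe sets read the same RNA samples, so they are repeat readings and not replicates. In bulk RNA, fewer cells of a type and less RNA per cell cannot be told apart.

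The relatives of *Chd7* had fewer data. *Chd8* (mean log2 level 9.22), *Chd9* (8.96) and *Chd6* (7.57), the other members of its branch, had no probe set with a mean for each genotype. *Chd1*, which keeps mESC chromatin open, had 4 probe sets, and the lowest of them (1431166_at, mean log2 level 7.54) was higher in Alkbh1-/- mESCs by 0.60, with log2 means of 7.24 in WT and 7.84 in Alkbh1-/- cells. *Chd2*, a close relative of *Chd1*, likewise had a mean for each genotype at a lower probe set only, 1445843_at, where the log2 means were 6.95 in WT and 7.54 in Alkbh1-/- cells, a difference of 0.59. The brightest probe sets of *Chd1* (9.06) and *Chd2* (9.12) had none, so these values hold for single probe sets and not for the genes.

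Of the 25 BAF genes, 3 (12.0%) had a mean for each genotype at the brightest probe set, against 14.9% of all named genes. None of the 3 reached 1.5-fold, a size reached upwards by 4.73% and downwards by 4.94% of all named genes. *Arid2*, the DNA-binding subunit that marks the PBAF form of the complex, had intensities of 2029 in WT and 1413 in Alkbh1-/- mESCs, a log2 difference of −0.52. Its fellow PBAF subunits *Pbrm1* (9.96), *Brd7* (9.43) and *Phf10* (10.33) had only a mean log2 level at their brightest probe sets. *Smarcd1*, the core subunit BAF60A, had log2 means of 7.74 in WT and 7.28 in Alkbh1-/- cells, a difference of −0.47. *Dpf1*, a double PHD finger subunit known from the BAF complexes of neurons, had log2 means of 6.83 in WT and 7.30 in Alkbh1-/- cells, a difference of 0.47.

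For BAF subunits outside that set of 3, differences were known at dimmer probe sets of 2 genes. *Phf10*, the PBAF subunit BAF45A of neural progenitors, had log2 means of 6.66 in WT and 7.35 in Alkbh1-/- cells at 1435774_at, a difference of 0.69, and this probe set was named through an older symbol. *Bcl7c*, a small accessory subunit, had log2 means of 6.02 and 5.49 at 1446516_at, a difference of −0.53. In both genes the dimmer probe set stood over 2 log2 units below the brightest one, 7.01 against 10.33 for *Phf10* and 5.76 against 8.63 for *Bcl7c*.

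The remaining BAF genes are known by level alone. The ATPase *Smarca4* had a mean log2 level of 10.72, and the scaffold subunits *Smarcc1*, *Smarcb1* and *Smarce1* had levels of 10.98, 10.07 and 10.35. *Arid1a*, the large DNA-binding subunit of the canonical complex, had 10.86, *Arid1b* 8.27, *Actl6a* 11.25, *Ss18* 11.49, *Dpf2* 10.02 and *Smarcd2* 9.95. *Brd9*, of the non-canonical complex, had 8.38, and *Bcl7a* and *Bcl7b* had 7.88 and 8.00. All of these lay above the median of the table. Probe sets differ in how well they bind their transcripts, so these levels do not rank the genes against each other.

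Low probe set values were seen for 2 BAF genes. *Actl6b*, the actin-like subunit of neurons, had a mean log2 level of 4.12, next to the table's 10th percentile of 4.12, and the ATPase *Smarca2* had 4.86. Both lay below the table's median. *Smarcd3* (6.45), *Dpf3* (6.62) and *Smarcc2* (6.71), which belong to BAF complexes of heart, muscle or neurons or to several tissues, lay within 0.5 log2 units above that median. None of these 5 genes had a mean for each genotype.

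Of the 23 NuRD/HDAC genes, 2 (8.7%) had a mean for each genotype at the brightest probe set, against 14.9% of all named genes. *Mbd3*, the methyl-CpG-binding domain protein without which NuRD does not assemble in mESCs, had intensities of 836 in WT and 605 in Alkbh1-/- cells, or log2 means of 9.71 and 9.24, a difference of −0.47. It is represented by 1 probe set. *Mbd2*, which takes the place of *Mbd3* in a separate NuRD complex, had a mean log2 level of 7.38 and no mean for each genotype.

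Further NuRD subunits had differences at dimmer probe sets. *Mta3*, one of the metastasis-associated scaffold proteins, had log2 means of 7.48 in WT and 6.83 in Alkbh1-/- cells at 1421402_at, a difference of −0.65. Its brightest probe set, 1451352_s_at at a mean log2 level of 10.54, has a suffix for probes that may bind transcripts of several genes, and had no mean for each genotype. *Gatad2a*, the zinc finger subunit p66-alpha, had log2 means of 6.55 and 6.14 at 1455505_at, a difference of −0.41, while its other 4 probe sets, up to a level of 10.86, had no mean for each genotype. *Mbd3*, *Mta3* and *Gatad2a* were the 3 NuRD subunits with any difference known, and each was lower in Alkbh1-/- mESCs at the probe set concerned. For *Mta3* and *Gatad2a* the values hold for single dimmer probe sets and not for the genes. The whole NuRD/HDAC group had 4 of 50 probe sets (8.0%) with a mean for each genotype, 1 higher and 3 lower, against 12.8% of all probe sets. Among autosomal genes with a mean for each genotype, 1173 of 1997 were lower.

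The enzymes of NuRD and the scaffolds of SIN3 were outside the smaller table. The ATPase *Chd4* had a mean log2 level of 10.09, *Hdac1* 11.49 and *Hdac2* 11.43, while the alternative ATPases *Chd3* and *Chd5* had 7.14 and 5.45. *Mta1* (8.83), *Mta2* (8.75) and *Gatad2b* (8.57) were all above the table's median. *Sin3a* and *Sin3b*, which recruit *Hdac1* and *Hdac2* in a complex of their own, had 9.93 and 10.67.

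*Hdac6*, a largely cytoplasmic deacetylase of tubulin, was the histone deacetylase with a mean for each genotype, and the other 10 had none, where 14.9% of all named genes had one. The intensity of *Hdac6* was 1078 in WT and 1618 in Alkbh1-/- mESCs, or 10.07 and 10.66 on the log2 scale. This is a difference of 0.59 and a fold of 1.502, just over the size of 1.5. The class I enzyme *Hdac3*, the catalytic partner of the NCoR and SMRT corepressors, had a mean log2 level of 9.39. Of the class IIa enzymes, *Hdac4* and *Hdac5* had 7.55 and 7.14, whereas *Hdac7* (6.28) and *Hdac9* (4.38) lay below the table's median. *Hdac8* (5.53), *Hdac10* (6.02) and *Hdac11* (5.56) lay below it too.

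*Hdac6* is X-linked, and so are *Hdac8* and *Smarca1* among the remodelers (chromosomes from RefSeq, assembly GRCm38.p6). Of 527 X-linked genes, 283 had a mean for each genotype at the brightest probe set, 262 of them higher in Alkbh1-/- mESCs and 21 lower, with a median log2 difference of 0.75. Of 14838 autosomal genes, 1997 had a mean for each genotype, 824 higher and 1173 lower. The Y-linked *Eif2s3y* had a log2 difference of −5.65, and *Ddx3y* one of −4.87 at its brightest probe set. The difference of *Hdac6* lay in the direction of most selected X-linked genes and was smaller than their median. The log2 means of *Eif2s3y* were 9.55 in WT and 3.90 in Alkbh1-/- cells, so Y-linked signal differed along with the genotype. The part of the sex chromosomes in the *Hdac6* difference, and in the other differences, cannot be told apart from that of the genotype. It was not tested. Without X-linked genes no remodeler exceeded WT by 1.5-fold at its brightest probe set.

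*Smarca1* went the other way. This ISWI ATPase, known as SNF2L and linked to neural progenitors, had log2 means of 7.10 in WT and 6.69 in Alkbh1-/- cells, a difference of −0.41, and was 1 of the 21 X-linked genes below WT. Its relative *Smarca5* (SNF2H), the ISWI ATPase that is needed in early embryos, had a mean log2 level of 11.96 at the highest of its 4 probe sets and no mean for each genotype. *Bptf*, the reader subunit that works with these ATPases, had 10.86 and none either.

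**Figure D2:**
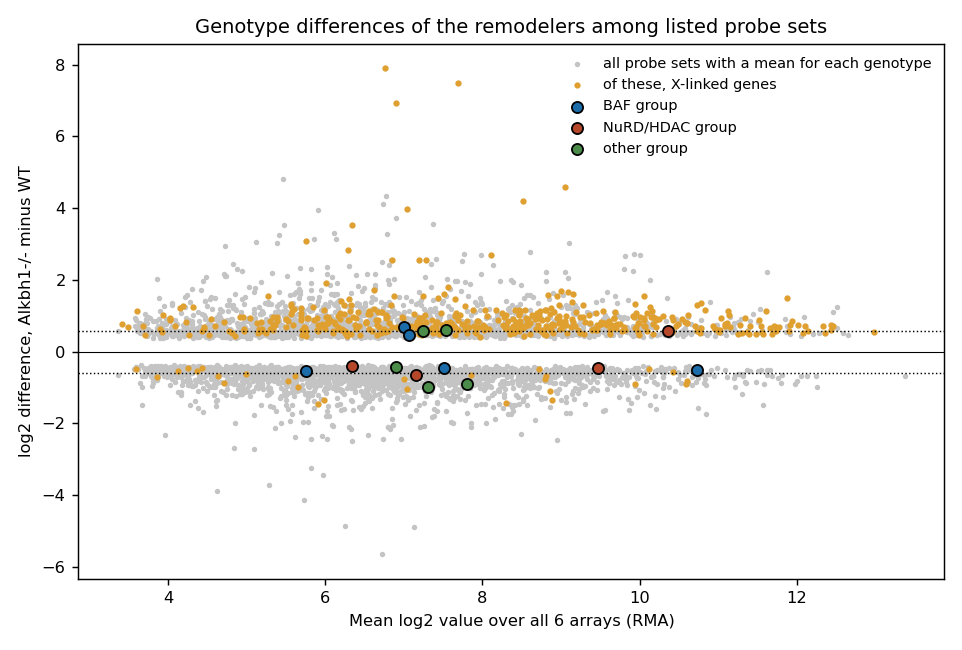
Log2 difference between the pooled means of Alkbh1-/- and WT mESCs (y axis) against the mean log2 value over all arrays (x axis), for the 4232 probe sets with a mean for each genotype (grey), X-linked genes among them (orange) and the 14 remodeler probe sets (large circles). Dotted lines mark 1.5-fold. The empty band around 0, out to 0.37 in size, reflects the selection of the table, and the remodelers lie between −1.00 and 0.69, with both *Chd7* probe sets farthest from the band.

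The other remodelers without a known difference were *Ino80* (9.16) and *Ep400* (9.79), the ATPases of the complexes that exchange H2A variants, *Smarcad1* (10.39), a nucleosome remodeler that maintains heterochromatin, *Smarcal1* (8.39), which acts at stalled replication forks, *Chd1l* (9.44), which responds to poly(ADP-ribose), and *Hltf* (9.79), listed under its older symbol Smarca3. Probe sets of the same gene differed widely. In the 40 genes with several, the highest and the lowest differed by a median of 3.45 log2 units, and by 7.82 in *Smarca5*. Of the 13 genes with a mean for each genotype at any probe set, 6 had it at a dimmer probe set only.

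**Figure D3:**
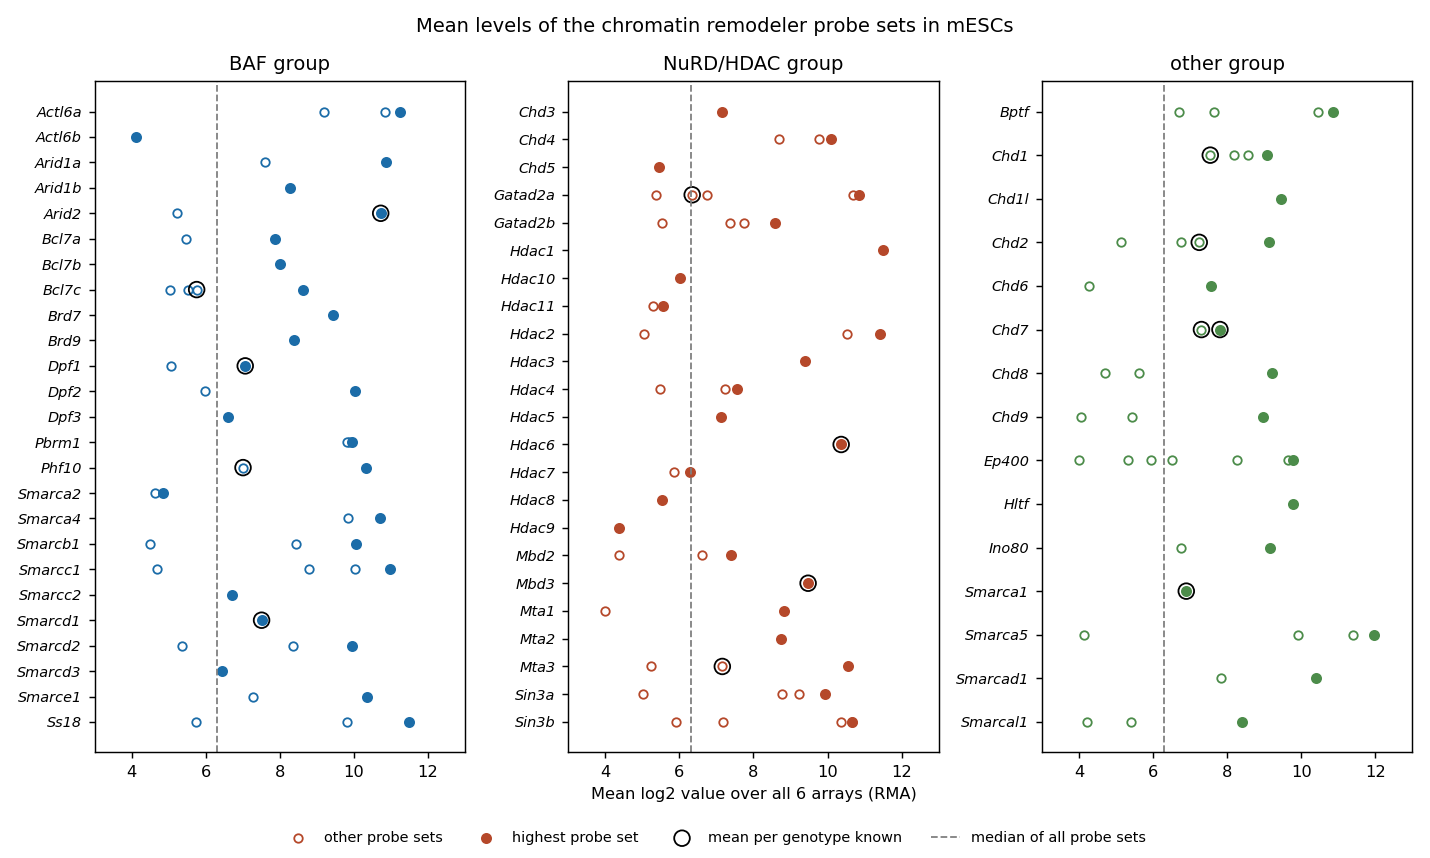
Mean log2 value over all 6 arrays (x axis) of the 143 probe sets of the 63 remodeler genes, by group. Filled circles are the brightest probe set of a gene, open circles the others, black rings the 14 probe sets with a mean for each genotype, and the dashed line the median of all 33142 probe sets, 6.31. *Actl6b*, *Hdac9* and *Smarca2* have the lowest filled circles, and 8 of 63 filled circles lie left of the line.

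Partners of the remodelers were looked at in 5 lists with 52 genes, all of which were found. At the brightest probe set 6 of them had a mean for each genotype, 3 higher and 3 lower in Alkbh1-/- mESCs, where 14.9% of all named genes had one. The lists are small, and nothing is read from the differences between their counts. The 3 ISWI partners among the 6 were *Baz2b*, *Baz1a* and *Cecr2*. *Baz2b*, a bromodomain protein, was higher by 0.94 (log2 means 7.91 in WT and 8.84 in Alkbh1-/- cells) at a probe set that has its gene identifier but the symbol Tpd52, *Baz1a*, the ACF1 subunit that directs nucleosome spacing, was lower at −0.67 (9.92 and 9.25), and *Cecr2*, a bromodomain partner known from neural tube closure, was lower at −0.57 (8.16 and 7.59). The 2 further selected probe sets of *Baz2b*, which carry no symbol, were higher by 0.90 and 0.99, and a dimmer one of *Baz1a* was lower at −0.99. *Baz2a*, the TIP5 subunit that silences ribosomal DNA, was known at a dimmer probe set only, where it was higher by 0.44 (log2 means 5.99 and 6.43).

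Of the 8 BAF and NuRD partners, *Bicral*, a subunit of non-canonical BAF, was higher by 0.60, and by 0.57 at a dimmer probe set. *Ss18l1*, the neuronal counterpart of *Ss18*, was lower at −0.45. *Cdk2ap1* (−0.69) and *Zmynd8* (−0.60), both NuRD-associated, were known at a dimmer probe set only. Of 9 SIN3 partners *Arid4a* was higher by 0.49 at its brightest probe set and by 0.80 at a dimmer one. Of 20 subunits of the INO80, SRCAP and TIP60 complexes, which exchange H2A.Z or acetylate H2A and H4, none had a mean for each genotype at any of their 41 probe sets, beside 12.8% of all probe sets. Of 7 further SNF2 proteins none had one at the brightest probe set, but *Atrx*, an X-linked ATPase that deposits H3.3 in heterochromatin, had 7 dimmer probe sets that were all higher in Alkbh1-/- mESCs, by 0.61 to 1.14.

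Markers of other cells moved with the genotype as well. Of 12 fibroblast genes, which the feeder layer would contribute, 6 had a mean for each genotype at the brightest probe set. The share of all named genes was 14.9%. Each of these 6 had less signal in the Alkbh1-/- samples, from −0.52 (*Thy1*) to −1.06 (*Col1a1*). A decrease of more than 1.5-fold was reached by 5 of the 12, beside 4.94% of all named genes. The summed intensity of the 6 was 5406 in WT and 2888 in Alkbh1-/- cells, and the 12 levels ran from 6.21 (*Lum*) to 11.82 (*Col1a2*). *Chd7*, *Arid2*, *Mbd3*, *Smarcd1* and *Smarca1* were lower in the same samples, and the part of the feeder cells in these differences was not tested. Of the pluripotency markers, *Nanog* (1.10), *Esrrb* (0.55) and *Zfp42* (0.41) were higher in Alkbh1-/- mESCs and *Utf1* (−0.49) was lower, while the other 6 had no mean for each genotype at the brightest probe set. Of 5 neural markers found, *Ncam1* was higher by 0.63 and *Map2* was lower at −0.54 at the brightest probe set. The levels of all 5 lay between 5.41 (*Pax6*) and 8.04 (*Tubb3*). By probe set, 6 of their 14 had a mean for each genotype, 5 higher and 1 lower, beside 12.8% of all probe sets. Apart from a probe set of *Sox1*, the higher ones were all repeat readings of *Ncam1*. *Sox1* was among the higher ones, by 1.27, at a dimmer probe set with a mean log2 level of 3.95, below the table's 10th percentile of 4.12.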

How the data were processed

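The authors normalized all 6 arrays together with the robust microarray analysis (RMA) algorithm after reading them with GCOS software. Their deposited table of 33142 probe sets gives the mean log2 value over all arrays, and a service company's class comparison gives, for the 4326 probe sets listed of 7320 that passed a filter, the deposited geometric mean of the intensity in each genotype. Both tables also hold the authors' own fold changes, test statistics and p-values, which were not used. The WT class bears a class name that the deposited description corrects to that of the WT arrays.

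The identifiers of the class comparison stand beside the wrong values, so each of its entries was tied to the probe set whose mean log2 value equalled the average of its 2 log2 genotype means within 1e-06. This gave 4232 ties, 8 of them with the identifier printed beside the values. All 4232 tied probe sets were among the identifiers printed somewhere in that table. Of the rest, 65 had no match and 29 had several. Differences are log2 Alkbh1-/- minus log2 WT of pooled means, and a fold over 1.5 was used as a rule of size. The tie was tested on simulated data. The simulated entries were made from the larger table's own mean values, so the test could not show how often real entries were tied wrongly.

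Probe sets were named through RefSeq genes of assembly GRCm38.p6 by gene identifier, accession or symbol (28243, 85.2%). Of the 143 remodeler probe sets, 137 were named by gene identifier. All remodelers are named, by genotype means where these exist and otherwise by level, and partners are named where they have a mean for each genotype. The genes and lists were chosen with earlier results of these data known. Python 3.11.15, pandas 2.3.3 and matplotlib 3.10.9 were used.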

Additional observations from a re-analysis of the deposited data

How the results depend on the processing

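No paired analysis was possible because the tables hold pooled means without values of single arrays, and leaving out single arrays was not run for the same reason. The count of 7 genes with a mean for each genotype became 13 with any probe set of the gene and 3 with a tolerance 10 times tighter. No matching share of all named genes was computed for these 2 settings. They cannot be set against the 14.9% at the brightest probe set. The count became 8 without probe sets of the _x_at and _s_at types, where *Mta3* came in, and stayed at 7 when identifiers as printed were used, with the same 7 genes. This last count could hardly differ, because all 4232 tied probe sets are among the printed identifiers. The count of 1 gene higher in Alkbh1-/- mESCs past 1.5-fold became 2 at a limit midway between no change and 1.5-fold, 0 at 2-fold, 4 with the brightest selected probe set of each gene and 0 without X-linked genes. The count of 1 gene lower became 5 at the midway limit, 0 at 2-fold and 2 with the brightest selected probe set, and was 1 without X-linked genes. The smallest selected difference, 0.37 in size, exceeds the midway limit, so the counts of 2 and 5 there were fixed in advance. For the counts with the brightest selected probe set, no matching share of all named genes was computed. With the values beside the printed identifiers, an alternative chosen after seeing the data, both counts were 3. Those values were not the ones tied to these probe sets, so the counts of 3 do not describe the remodelers. The second probe set of *Chd7* gave −1.00 in place of −0.89. The causes were not tested.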

Other observations

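The class comparison lists the right probe sets beside the wrong values. Beside the printed identifiers of *Alkbh1*, 1434660_at and 1438681_at, stood log2 differences of −1.22 and 0.60, whereas the values tied by the mean were −4.89 and −1.79. Read by printed identifier, *Arid2* would have a log2 difference of 0.74, *Smarca1* one of 0.60 and *Dpf1* one of −1.11, each with the opposite sign to the value tied by the mean, while *Chd7* (−1.07), *Mbd3* (−0.52), *Smarcd1* (−0.61) and *Hdac6* (0.95) would keep theirs.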
